A study of Prunus persica with 12 samples.

Results

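Transcripts were compared between ripe fruit flesh of the soft melting peach 'Hu Jing Mi Lu' at its stage 3 (HJ3) and flesh of the hard melting peach 'Zhong Hua Shou Tao' (ZH2), Prunus persica. The comparison took 2 HJ3 and 2 ZH2 libraries, so 4 of 12 in the series, by cultivar, stage and replicate number in the sample titles. HJ3 carried the labels strong aroma, soft melting flesh and a Brix of 12.5, and ZH2 the labels slight aroma, hard melting flesh and a Brix of 18. Brix measures soluble solids, mainly sugars. ZH2 bears the stage number 2, and 'Hu Jing Mi Lu' at that same number (HJ2, 2 libraries, strong aroma, soft melting, Brix 12.1) served as the other counterpart, to see which of its differences from ZH2 persisted when HJ3 took its place. Levels in 'Hu Jing Mi Lu' stage 1 (HJ1, slight aroma, soft melting), 'Yu Lu' (YL2) and 'Jin Xiu Huang Tao' (JX2), the last 2 of strong aroma and soft melting, are given for some of the named genes. All groups were fruit mesocarp, and the labels name no treatment. Between HJ3 and ZH2, cultivar, stage number, texture, aroma and Brix all differ at once and cannot be told apart. The labels do not say how many fruit or trees a library holds, so p-values measure the spread between these libraries, which may be technical.

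Peach softening is a programme of ripening in which ethylene, a gaseous plant hormone, induces enzymes that take apart pectin and other wall polymers. In soft melting flesh this goes quickly to a juicy texture, while flesh that stays firm for longer keeps more of its wall pectin joined. Peach aroma comes in large part from lactones, made from fatty acids, and from linalool, a terpene alcohol. The identifiers of the deposited tables carry no names, however, and 0 of 27864 matched the reference gene table. Results name identifiers alone, without function or position and at most 2 in each direction for each pattern, and the mesocarp label could not be set against marker genes.

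Levels are RPKM, the reads of a gene scaled by its length in kilobases and by the depth of the library. The flesh was measured in bulk, so fewer cells of a type and less RNA per cell cannot be told apart. Differences are given on the log2(RPKM + 1) scale, with the standard error (SE) of limma, and understate the change of low genes. Depth, worked back from the RPKM values, was 1814325 and 1470038 reads in HJ3, 2505617 and 2889279 in ZH2, and 2440928 and 3222252 in HJ2. In a gene of 1 kb, 3 reads are worth 1.65 and 2.04 RPKM in HJ3 and 1.20 and 1.04 RPKM in ZH2, and this is the floor used where a library had 0 reads. Across the genes tested, Pearson's r of the log2 levels was 0.963 between the HJ3 libraries, 0.977 between the ZH2 libraries and 0.910 between the replicate 1 libraries of HJ3 and ZH2. Genes are not independent of each other, so these coefficients only describe the libraries.

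The flesh of HJ3 and ZH2 differed at 2857 of 15217 genes (18.8%), by limma with a Benjamini-Hochberg adjusted p under 0.05, which is the meaning of "called" throughout. Of these, 1589 genes (10.4% of those tested) were higher in HJ3 and 1268 (8.33%) were lower. The median log2 difference of HJ3 minus ZH2 over all genes tested was 0.02. At least 1 on the log2 scale separated the groups in 930 genes higher in HJ3 and 722 lower, and at least 3 in 114 and 60. The higher calls took 28.5% and 29.4% of the RPKM sum in the HJ3 libraries against 15.1% and 15.6% in the ZH2 libraries. The lower calls took 12.5% and 12.3% in HJ3 against 27.3% and 27% in ZH2. These genes were chosen by the same contrast, so the shares describe how much of the transcript pool they cover. The number of calls was 1663 without ZH2 replicate 1 and 1810 without ZH2 replicate 2.

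**Figure D1:**
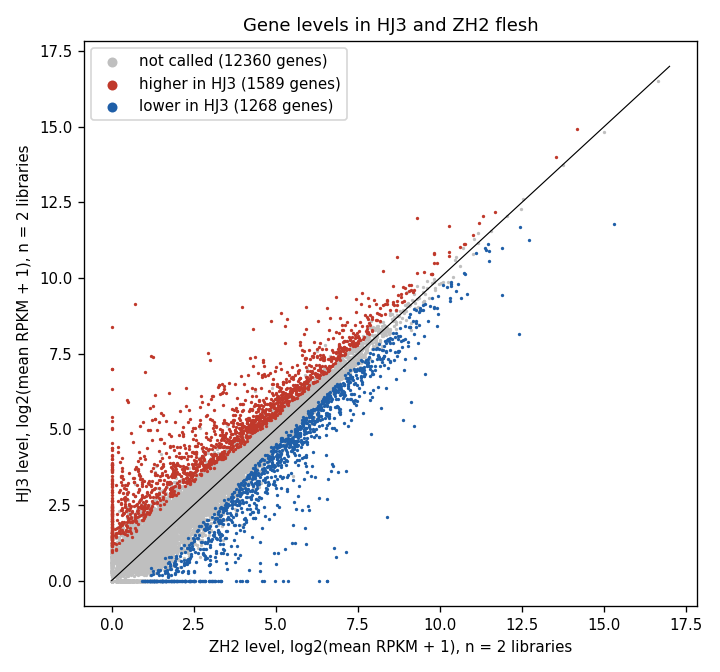
Each point is a gene, with its ZH2 level on the x axis and its HJ3 level on the y axis, both as log2(mean RPKM + 1) of 2 libraries; red points were called higher in HJ3 (1589), blue points lower (1268), and the line marks equal levels. Calls lie on both sides of the line at all levels, with a row of genes at 0 reads along each axis.

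At a pseudocount of 1, the difference of largest size was in ppa006857m, ahead of ppa009649m. The order of these 2 genes turned at a pseudocount of 0.1 (9.79 and 11.7), with voom (9.73 and 10.98) and without ZH2 replicate 1 (8.09 and 8.38 on the log2 scale). For ppa006857m the RPKM was 577 and 540 in HJ3 and 0.243 and 1.05 in ZH2. HJ3 minus ZH2 was 8.45 ± 0.245 on the log2 scale (SE, limma adjusted p = 5.42e-09). The ZH2 level rests on 6 reads, and the ratio of reads corrected for depth was 827, with a 95% counting interval of 380 to 2260. As a ratio of mean RPKM it was 530 without ZH2 replicate 1 and 2300 without ZH2 replicate 2. Transcripts of this gene were also scarce at HJ stage 1, at 0.628 RPKM (2 reads) in one library and 0 reads in the other, and stood at 70.2 and 70.9 RPKM in HJ2. In the other soft melting cultivars the levels were 818 and 839 RPKM in YL2 and 189 and 214 RPKM in JX2. ZH2 thus lay with HJ1, below every other group. These 2 are the groups labelled slight aroma, but a tie to aroma was not tested. The gene was chosen for its gap between HJ3 and ZH2.

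The gene ppa009649m had 0 reads in both ZH2 libraries and an RPKM of 329 and 337 in HJ3. The log2 difference of HJ3 minus ZH2 was 8.38 ± 0.116 (SE, limma adjusted p = 9.96e-12), and HJ3 was at least 314-fold higher, against 3 reads in the shallower ZH2 library. Its level was 83.8 and 75.6 RPKM in HJ1 and 418 and 508 RPKM in HJ2. The RPKM was 108 and 104 in YL2 and 338 and 317 in JX2, so that ZH2 was the only group without a read.

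In the other direction, ppa024380m had 0 reads in HJ3 and an RPKM of 96.8 and 91.2 in ZH2. HJ3 minus ZH2 was -6.57 ± 0.203 (SE, limma adjusted p = 7.20e-09), and ZH2 was at least 50.2-fold higher. It had 0 reads in HJ1 and HJ2 too, and stood at 91.8 and 104 RPKM in YL2 and 64.3 and 57.8 RPKM in JX2. The gene ppa019902m likewise had 0 reads in all 6 HJ libraries, and also in both YL2 libraries. It stood at 87.7 and 98.1 RPKM in ZH2 and 49.9 and 44.7 RPKM in JX2. The difference on the log2 scale was -6.55 ± 0.254 (SE, limma adjusted p = 4.14e-08), with ZH2 at least 30-fold higher. Both genes separate the cultivars rather than the stages of 'Hu Jing Mi Lu' in these libraries. A group with 0 reads in both libraries adds no spread to the SE, which all 6 groups share. The SE and p-value of genes with such groups, above and below, may therefore be too small.

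**Figure D2:**
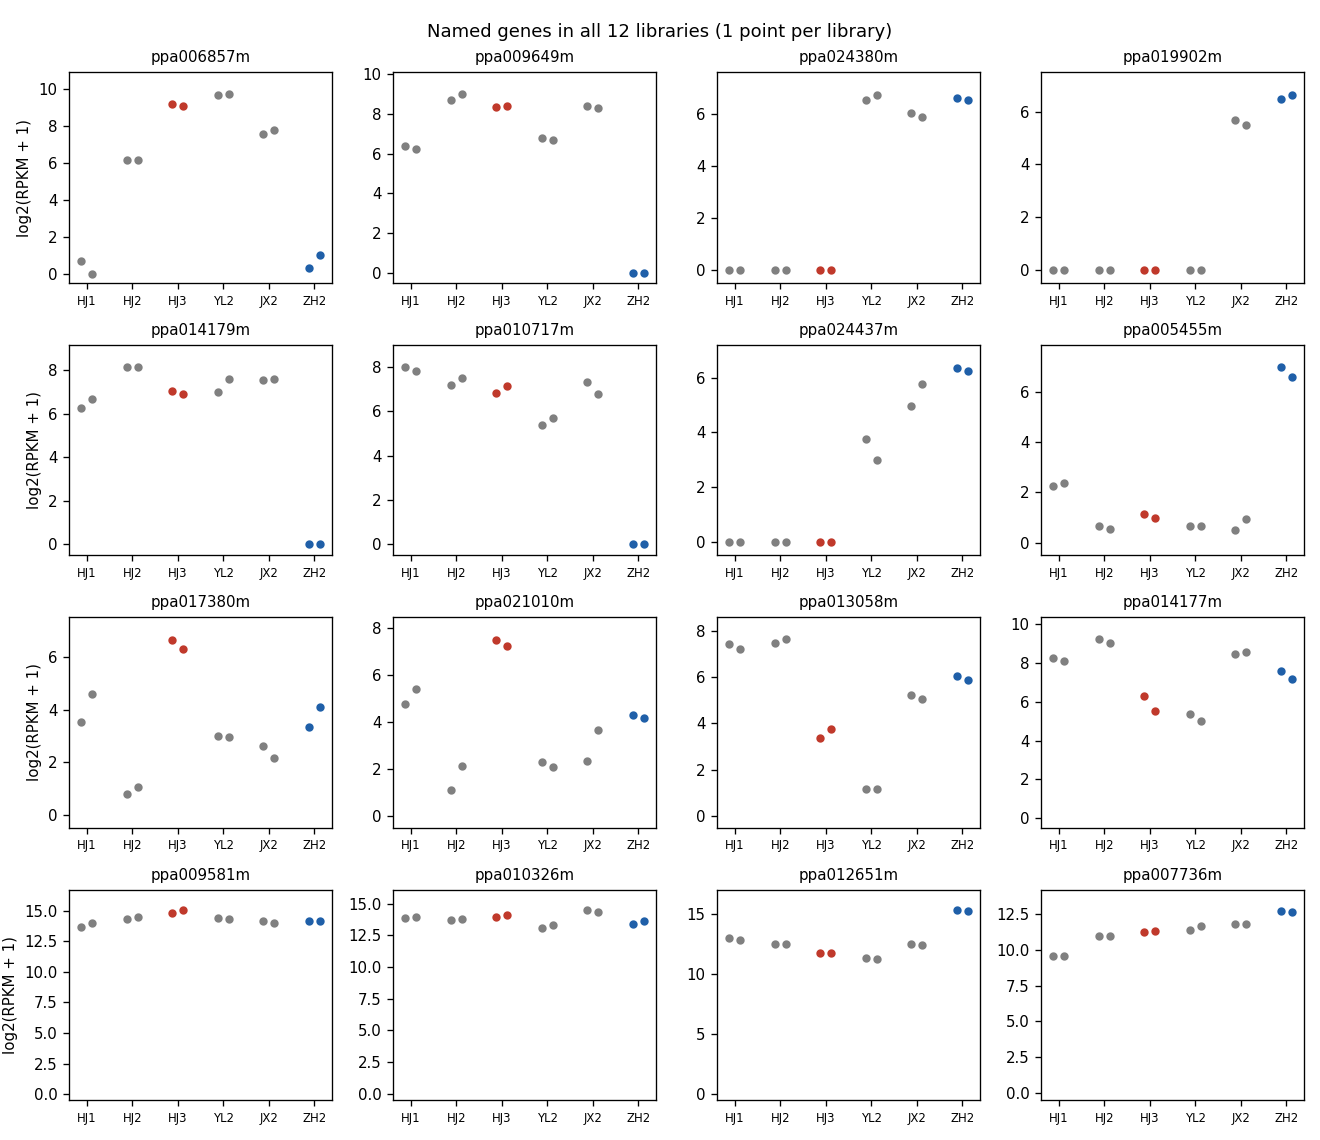
Each panel is a named gene and each point a library, with the 6 groups on the x axis and log2(RPKM + 1) on the y axis (HJ3 red, ZH2 blue, other groups grey); rows 1 and 2 hold the strongest and the persisting differences, row 3 those called in opposite directions for HJ2 and HJ3, and row 4 the most abundant genes called. In rows 1 and 2 the HJ3 and ZH2 points lie far apart, as in ppa009649m, with 0 reads in ZH2 and 329 and 337 RPKM in HJ3.

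Among the genes tested, 904 had 0 reads in both ZH2 libraries and 1013 had 0 reads in both HJ3 libraries, most of them with a mean under 10 RPKM or also 0 reads in the other group. With a mean of at least 10 RPKM in HJ3 and 0 reads in ZH2 there were 30 genes, chosen on the values that the call tests, so that their calls as higher in HJ3 (10.4% of all genes tested were so called) are no separate result. Their median was 15.2 RPKM and their maximum 333 RPKM in HJ3. In 10 of them each HJ stage had a mean of at least 10 RPKM. The reverse, 0 reads in HJ3 and at least 10 RPKM in ZH2, held for 14 genes, chosen in the same way, with a median of 23.4 RPKM and a maximum of 94.0 RPKM in ZH2. Of these, 5 had 0 reads in all 6 HJ libraries. They were ppa024380m, ppa019902m and ppa024437m, together with ppa016661m and ppa026798m, the last 2 singled out after their values were seen. The gene ppa016661m had reads in ZH2 alone, 11 and 10 of them, at 18.3 and 14.4 RPKM. The gene ppa026798m had 32 and 24 reads in ZH2 and up to 9.5 RPKM in the other cultivars.

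Abundant transcripts also differed. Among the 10 genes with the highest mean RPKM in HJ3, 7 were among the 10 of ZH2 as well, and among the 100 highest the lists shared 77. Of the 100 of HJ3, 40 were called higher in HJ3 and 24 lower, and of the 100 of ZH2, 20 and 44, against 10.4% higher and 8.33% lower over all genes tested. Each list leans to the group it was ranked in by its choice. The 10 most abundant genes of each library took 29.1% ± 1.14 of the RPKM sum in HJ3 and 32.4% ± 0.353 in ZH2 (mean ± SD, n = 2); for 2 libraries against 2 no exact test can reach p under 0.05. The most abundant call was ppa012651m, at 40576 and 39701 RPKM in ZH2 against 3503 and 3524 RPKM in HJ3, a ratio of 11.4. HJ3 minus ZH2 was -3.51 ± 0.0813 on the log2 scale (SE, limma adjusted p = 1.31e-09). No other group came near the ZH2 level, since the RPKM was at most 8161 in HJ1, 5979 in HJ2, 2625 in YL2 and 5949 in JX2. The gene ppa007736m was also higher in ZH2, at 6833 and 6511 RPKM against 2406 and 2539 RPKM in HJ3, a ratio of 2.70 (limma adjusted p = 3.52e-06). The abundant genes higher in HJ3 differed less. The gene ppa009581m stood at 29178 and 33774 RPKM in HJ3 and 18894 and 18168 RPKM in ZH2, a ratio of 1.70 (limma adjusted p = 0.0015). The gene ppa010326m stood at 15672 and 17473 RPKM in HJ3 and 10993 and 12653 RPKM in ZH2, a ratio of 1.4 (limma adjusted p = 0.00819), and was above HJ3 in JX2, at 22574 and 21202 RPKM. Its call was lost without HJ3 replicate 2 (log2 difference 0.41, limma adjusted p = 0.0611), without ZH2 replicate 1 (log2 difference 0.39, limma adjusted p = 0.0953) and with only the HJ2, HJ3 and ZH2 libraries in the fit (limma adjusted p = 0.0806).

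Most differences between HJ2 and ZH2 did not persist as calls when HJ3 replaced HJ2. HJ2 against ZH2 gave 3785 calls (24.9% of 15217), of which 2572 (16.9%) were higher in HJ2 and 1213 (7.97%) lower. With HJ3, 1101 of the 3785 were called in the same direction (29.1%), 373 in the opposite direction (9.85%), and 2311 were not called (61.1%). Of all 15217 genes tested, 18.8% were called with HJ3, 10.4% as higher than ZH2 and 8.33% as lower. The persisting genes made up 38.5% of the 2857 calls of HJ3 against ZH2. Both comparisons share the ZH2 libraries, so a deviation of ZH2 enters both and the overlap is a description. The persisting count was 645 and 660 without ZH2 replicates 1 and 2, out of 2516 and 2426 HJ2 calls (25.6% and 27.2%). The HJ2 count itself was 2357 and 2446 without HJ2 replicates 1 and 2.

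**Figure D3:**
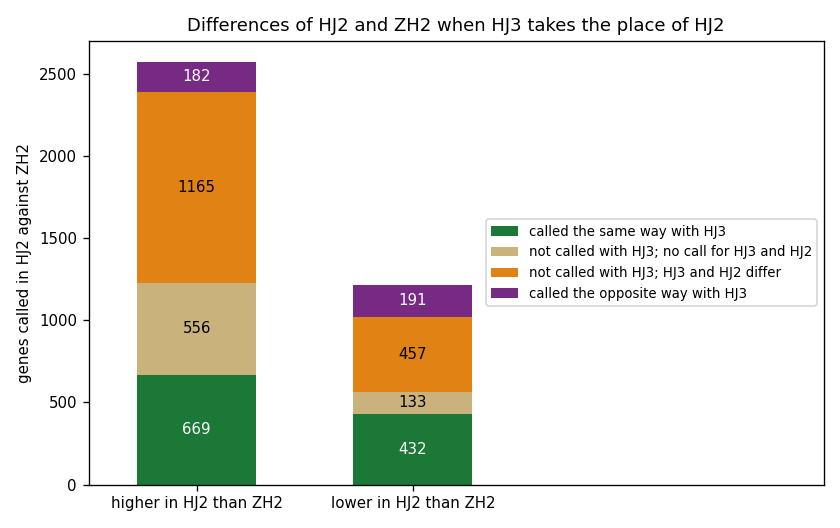
Bars count the genes called in HJ2 against ZH2, for genes higher (left, 2572) and lower (right, 1213) in HJ2; segments show what became of them with HJ3, with the number of genes in each. Green segments, called the same way, hold 669 and 432 genes, and the orange segments, not called with HJ3 and different between HJ3 and HJ2, hold 1165 and 457.

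Whether a difference from ZH2 changed with the stage of 'Hu Jing Mi Lu' was tested by HJ3 against HJ2, since ZH2 cancels in that contrast; it called 4480 genes (29.4%), or 2886 without HJ2 replicate 1. Of the 2311 genes not called with HJ3, 1622 were called in HJ3 against HJ2. That number was 956 and 1005 without HJ2 replicates 1 and 2. For the 1165 of these that were higher in HJ2, the median log2 difference from ZH2 was 1.19 with HJ2 and 0.00 with HJ3. For the 457 that were lower it was -1.37 and 0.05. HJ3 against HJ2 shares its libraries with the calls that chose these genes, so passing it is no separate result. The other 689 were not called between HJ2 and HJ3 either. Their number was 1170 and 1313 without HJ3 replicates 1 and 2, and 380 and 360 without ZH2 replicates 1 and 2. The 556 higher genes among them had a median of 1.01 with HJ2 and 0.46 with HJ3, and the 133 lower genes -1.04 and -0.53. All of these 689 kept with HJ3 the sign of their HJ2 difference. Among the 1165 and 457 changed genes, 528 and 195 kept it, and 530 and 262 had the opposite sign. The medians of all these classes follow in part from the choice of the genes by their calls. HJ3 was sequenced less deeply than HJ2, and whether a missed call came from depth was not tested gene by gene. With all libraries thinned to 1205507 reads (tried only once these data were known), 757 of 2830 HJ2 differences persisted (26.7%).

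**Figure D4:**
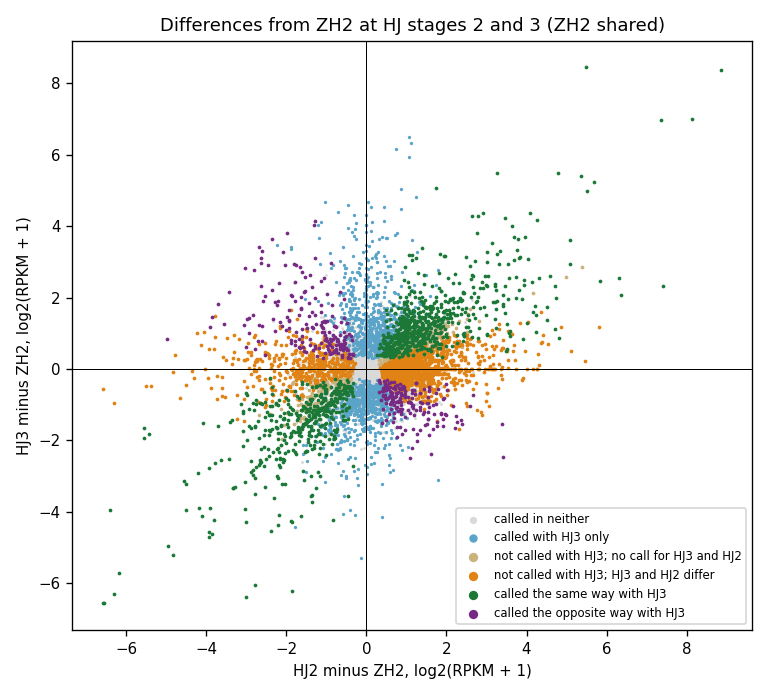
Each point is a gene, with HJ2 minus ZH2 on the x axis and HJ3 minus ZH2 on the y axis, both on the log2(RPKM + 1) scale; both axes share ZH2, so some agreement along the diagonal comes with the design. Persisting genes (green, 1101) lie in the lower left and upper right, genes called in opposite directions (purple, 373) in the other quadrants, and genes not called with HJ3 (orange and tan, 2311) lie closer to the horizontal line; genes called with HJ3 alone (blue, 1383) lie about the vertical line.

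The persisting share was larger at larger differences, which is given as a description, without a test. Of HJ2 calls with a log2 difference under 1, 320 of 1393 persisted (23.0%). The numbers were 479 of 1704 for differences from 1 to 2 (28.1%), 181 of 452 from 2 to 3 (40.0%), 73 of 154 from 3 to 4 (47.4%) and 48 of 82 at 4 or more (58.5%). By direction, 669 of 2572 genes higher in HJ2 persisted (26.0%) and 432 of 1213 genes lower in HJ2 (35.6%). Over all genes tested, 10.4% were called higher in HJ3 than ZH2 and 8.33% lower. The gap between the directions lay mostly in low genes. In the lowest tertile of mean RPKM the persisting shares were 15.2% of the higher and 48.0% of the lower HJ2 calls, and in the highest tertile 30.2% and 32.3%. Over all HJ2 calls they were 28.8% and 31.7% at a pseudocount of 0.1, and 23.4% and 39.4% at 5. Rescaling each library by its median ratio brought the persisting shares by direction from 26.0% and 35.6% to 30.7% and 34.1%. It also moved the calls of HJ2 against ZH2 from 2572 higher and 1213 lower to 1637 and 1697, and the median log2 difference of all genes there from 0.23 to 0.03. For HJ3 against ZH2 rescaling gave 1501 higher and 1440 lower, with a median moving from 0.02 to 0.00, so the balance with HJ3 depended less on scaling than that with HJ2. Among the persisting genes, 724 showed no call between HJ2 and HJ3, 263 lay closer to ZH2 in HJ3 than in HJ2 by a called difference, and 114 lay farther away. A log2 difference of at least 1 with both HJ2 and HJ3 was found for 608.

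Besides the 3 genes described above with 0 reads in one cultivar, the strongest persisting differences were again near to presence and absence. The gene ppa014179m had 0 reads in ZH2 and an RPKM of 279 and 284 in HJ2 and 133 and 121 in HJ3, at least 144-fold and 65.0-fold higher. Its log2 difference from ZH2 was 8.14 ± 0.183 with HJ2 and 7 ± 0.183 with HJ3 (SE, limma adjusted p = 9.48e-10 and 3.22e-09). The gene ppa010717m had 0 reads in ZH2, 144 and 182 RPKM in HJ2 and 113 and 141 RPKM in HJ3. The log2 differences were 7.34 ± 0.193 and 6.99 ± 0.193 (SE, limma adjusted p = 3.41e-09 and 4.36e-09), with HJ2 at least 127-fold and HJ3 at least 98.8-fold higher. Both genes had reads in every library outside ZH2.

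Lower in both stages was ppa024437m, with 0 reads in all HJ libraries and 81.2 and 74.9 RPKM in ZH2, at least 15.0-fold above HJ3 and 25.0-fold above HJ2. Its log2 difference from ZH2 was -6.30 ± 0.332 with either stage (SE, limma adjusted p = 2.15e-07 for HJ2 and 5.03e-07 for HJ3). The other cultivars lay between, at 12.4 and 6.98 RPKM in YL2 and 29.9 and 53.4 RPKM in JX2. The gene ppa005455m stood at 124 and 94.8 RPKM in ZH2, 0.592 and 0.449 RPKM in HJ2 and 1.20 and 0.984 RPKM in HJ3. The differences were -6.17 ± 0.285 and -5.71 ± 0.285 (SE, limma adjusted p = 8.34e-08 and 3.63e-07). On 4 and 5 reads in HJ2 and HJ3, ZH2 was 212 times HJ2 (95% counting interval 82.6 to 781) and 98.5 times HJ3 (42.0 to 304). No library of the remaining groups exceeded 4.20 RPKM, so this gene was high in ZH2 alone.

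Over all 669 genes that persisted as higher, the median RPKM was 29.7 and 28.5 in HJ2, 24.6 and 23.5 in HJ3, and 8.96 and 9.53 in ZH2. The groups that the rule did not use lay above ZH2, at 28.7 and 28.6 in HJ1, 16.7 and 16.0 in YL2 and 21.1 and 21.5 in JX2. Over the 432 that persisted as lower, the median was 9.86 and 9.76 in HJ2, 9.08 and 10.2 in HJ3, and 33.8 and 34.1 in ZH2. There HJ1 stood at 13.8 and 13.6, YL2 at 16.0 and 17, and JX2 at 14.3 and 15.1. Since the genes were chosen for a deviating ZH2 level, groups on the HJ side of ZH2 follow in part from the choice.

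**Figure D5:**
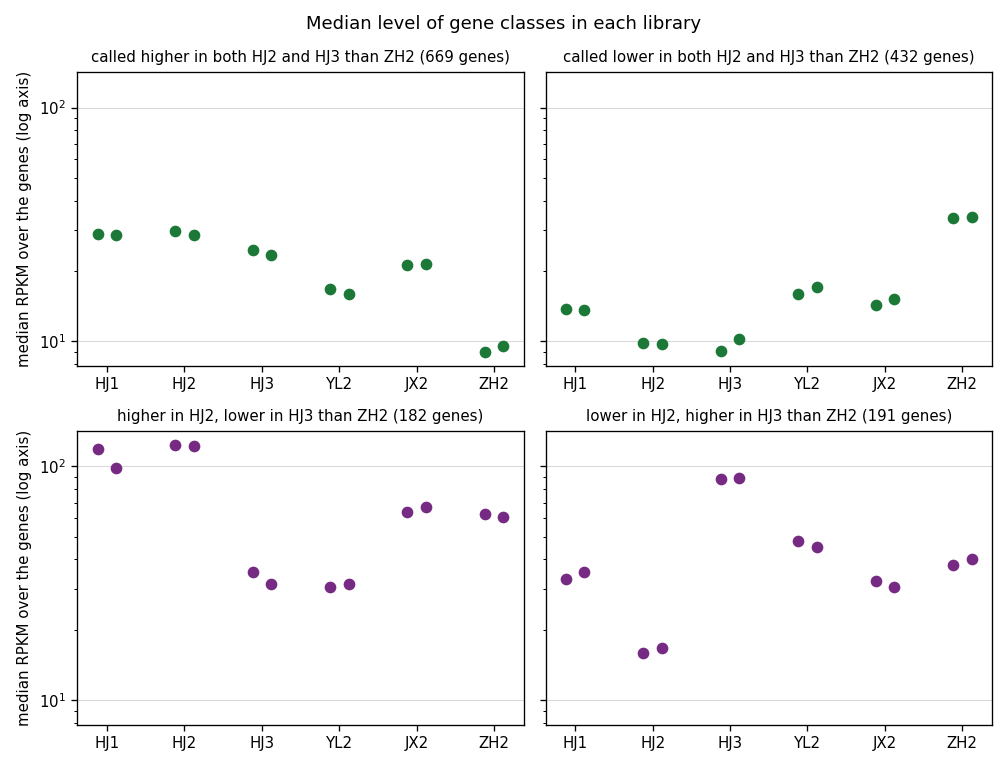
Each point is the median RPKM (log axis) of a class of genes in a library, with the 6 groups on the x axis; the top panels hold genes called the same way against ZH2 with HJ2 and HJ3 (669 and 432), the bottom panels those called in opposite directions (182 and 191). In the top panels ZH2 lies at an end of the range, and in the bottom panels it lies between HJ2 and HJ3, as the choice of the genes requires.

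The 1165 genes that were higher in HJ2 and changed by HJ3 had a median RPKM of 22.5 and 23.1 in HJ2, 8.65 and 7.96 in HJ3, and 8.12 and 8.28 in ZH2. There HJ1 stood at 27.8 and 26.8, YL2 at 7.96 and 7.98, and JX2 at 12.0 and 12.6. The order of HJ2, HJ3 and ZH2 follows in part from the choice of these genes. Among differences lost with HJ3, ppa013981m stood at 120 and 107 RPKM in HJ2, 3.95 and 3.25 in HJ3, and 1.91 and 0.413 in ZH2. HJ2 minus ZH2 was 5.81 ± 0.476 on the log2 scale (SE, limma adjusted p = 5.65e-06), and HJ3 minus ZH2 was 1.18 ± 0.476 (SE, limma adjusted p = 0.118). On 5 reads in ZH2, the HJ2 ratio was 102 (95% counting interval 43.2 to 314), and as a ratio of mean RPKM it was 274 and 59.4 without ZH2 replicates 1 and 2. The gene ppa006496m stood at 49.7 and 45.1 RPKM in HJ2, with 2 reads in HJ3 and 1 read in ZH2. HJ2 minus ZH2 was 5.46 ± 0.306 (SE, limma adjusted p = 3.52e-07), a ratio of 412 on that read (95% counting interval 73.6 to 16300), or 222 without ZH2 replicate 1. HJ3 minus ZH2 was 0.23 ± 0.306 (SE, limma adjusted p = 0.683), and HJ1 had a level like HJ2, at 42.8 and 41.9 RPKM. In YL2 ppa006496m had 0 reads and in JX2 1.09 and 0.808 RPKM, so ZH2 was not alone in its low level.

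In the other direction, ppa008439m stood at 1.97 and 0.997 RPKM in HJ2, 182 and 135 in HJ3, and 185 and 286 in ZH2, so that the higher HJ3 library nearly reached the lower ZH2 library and HJ2 lay far below. HJ2 minus ZH2 was -6.56 ± 0.274 (SE, limma adjusted p = 4.02e-08), with ZH2 168 times HJ2 on 10 HJ2 reads (95% counting interval 91.3 to 352). With HJ3 the difference from ZH2 was -0.55 ± 0.274 (SE, limma adjusted p = 0.211). No read of ppa010522m was found in HJ2, and its levels were 42.5 and 37.3 RPKM in HJ3 and 72.9 and 84.0 RPKM in ZH2, at least 48.9-fold above HJ2. HJ3 lay below ZH2 in both libraries, with a log2 difference of -0.96 ± 0.315 that missed the threshold (SE, limma adjusted p = 0.0574).

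Differences that appeared only as calls with HJ3 numbered 1383, or 48.4% of the 2857. Of these, 1013 were also called between HJ3 and HJ2, and 370 were not. That contrast shares its libraries with the calls that chose these genes, so passing it is no separate result. The 1013 became 672 without ZH2 replicate 1. The 370 became 690 and 640 without HJ2 replicates 1 and 2, 213 and 228 without HJ3 replicates 1 and 2, and 172 and 186 without ZH2 replicates 1 and 2. The 512 changed genes that were higher in HJ3 had a median log2 difference from ZH2 of -0.01 with HJ2 and 1.39 with HJ3. The 501 that were lower had 0.08 and -1.03. These medians follow in part from the choice of the genes by their calls. The gene ppa010355m stood at 186 and 155 RPKM in HJ3, 2.67 and 3.37 in HJ2, and 2.63 RPKM and 0 reads in ZH2. HJ3 minus ZH2 was 6.49 ± 0.57 (SE, limma adjusted p = 2.11e-05) and HJ2 minus ZH2 1.07 ± 0.57 (SE, limma adjusted p = 0.207). On 7 ZH2 reads, all in a single library, the HJ3 ratio was 122 (95% counting interval 58.9 to 306), or 64.9 as a ratio of mean RPKM without ZH2 replicate 1. It was high at HJ stage 1 too, at 173 and 186 RPKM. The gene ppb012927m, with 0 reads in ZH2, followed the same course, at 26.0 and 38.1 RPKM in HJ1, 0.942 and 1.43 in HJ2, and 92.5 and 67.2 in HJ3. HJ3 was at least 29.0-fold above ZH2 (log2 difference 6.32 ± 0.556 SE, limma adjusted p = 2.12e-05). Among the stages of 'Hu Jing Mi Lu' both genes were thus lowest at stage 2. They were low in YL2 and JX2 as well, at up to 2.85 RPKM for ppa010355m and up to 6.76 RPKM for ppb012927m. ZH2 was therefore not alone in its low level.

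The gene ppa013865m had 0 reads in HJ3, 41.2 and 29.2 RPKM in HJ2, and 52.2 and 28.2 RPKM in ZH2, which overlapped HJ2. ZH2 was at least 12.3-fold above HJ3 (log2 difference -5.30 ± 0.367 SE, limma adjusted p = 4.08e-06). The gene ppa023846m stood at 61.4 and 65.9 RPKM in ZH2, 16.5 and 19.3 in HJ2, and 8.08 RPKM and 0 reads in HJ3. ZH2 thus lay above HJ2 as well, by a difference that was not called (HJ2 minus ZH2 -1.78 ± 0.872 SE, limma adjusted p = 0.171). ZH2 was 14.3 times HJ3 on 4 HJ3 reads (95% counting interval 5.41 to 53.6; log2 difference -4.42 ± 0.872 SE, limma adjusted p = 0.00462), or 7.88 times as a ratio of mean RPKM without HJ3 replicate 2. Its call was lost at a pseudocount of 0.1 (limma adjusted p = 0.0548).

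For 373 genes ZH2 lay between the stages, called higher than one and lower than the other. In 182 of them HJ2 was above and HJ3 below ZH2, with medians of 0.87 and -0.83 on the log2 scale. In 191 HJ2 was below and HJ3 above, with medians of -1.26 and 1.05. Over the 182 genes the median RPKM was 124 and 122 in HJ2, 62.6 and 60.8 in ZH2, and 35.3 and 31.5 in HJ3, while YL2 stood at 30.6 and 31.3, JX2 at 63.8 and 67.3, and HJ1 at 119 and 98.8. Over the 191 genes it was 15.9 and 16.7 in HJ2, 38.0 and 40.1 in ZH2, and 88.4 and 89.1 in HJ3, while YL2 stood at 47.7 and 45.2, JX2 at 32.2 and 30.5, and HJ1 at 32.9 and 35.3. The other cultivars thus differed from each other in both classes.

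The gene ppa021010m stood at 1.12 and 3.39 RPKM in HJ2, 18.5 and 17 in ZH2, and 179 and 146 in HJ3. HJ3 was 9.14 times ZH2 (log2 difference 3.12 ± 0.428 SE, limma adjusted p = 0.000451). ZH2 was 7.35 times HJ2 on 10 HJ2 reads (95% counting interval 3.77 to 16.0, limma adjusted p = 0.00101), or 5.24 and 15.9 times as ratios of mean RPKM without HJ2 replicates 1 and 2. The gene ppa017380m stood at 0.711 and 1.08 RPKM in HJ2, 9.01 and 16.2 in ZH2, and 100 and 79.1 in HJ3. HJ3 was 7.12 times ZH2 and ZH2 14.0 times HJ2 on 3 HJ2 reads (95% counting interval 4.46 to 70.7; limma adjusted p = 0.000308 and 0.000195). Among genes that went the other way, ppa013058m stood at 179 and 196 RPKM in HJ2, 64.7 and 57.1 in ZH2, and 9.44 and 12.7 in HJ3. HJ2 was 3.08 times ZH2 and ZH2 5.50 times HJ3 (limma adjusted p = 3.07e-05 and 3.71e-06). The gene ppa014177m stood at 605 and 531 RPKM in HJ2, 190 and 146 in ZH2, and 77.3 and 45.5 in HJ3, with HJ2 3.37 times ZH2 and ZH2 2.74 times HJ3 (limma adjusted p = 0.000148 and 0.000731). The count of such genes was 174 and 190 without ZH2 replicates 1 and 2, and 239 without HJ2 replicate 1.

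The balance of calls moved with gene length, worked back from the RPKM values. In the shortest tertile, up to 999 bp, 463 genes were called higher in HJ3 than ZH2 and 601 lower, and in the middle tertile 528 and 418. In the longest tertile, from 1645 bp, 598 were higher and 249 lower. The median log2 difference of all genes was 0.00 in the shortest tertile and 0.10 in the longest, and lay between 0.08 and 0.12 in the longest tertile for each of the 4 pairings of an HJ3 with a ZH2 library. HJ2 against ZH2 ran the other way, with medians of 0.32 in the shortest and 0.14 in the longest tertile. The persisting share was 27.4% in the shortest, 30.1% in the middle and 29.9% in the longest tertile. Its split by direction turned with length, from 21.6% of the higher and 41.6% of the lower HJ2 calls in the shortest tertile to 31.6% and 27% in the longest. By mean level, 162 of 638 HJ2 calls persisted in the lowest tertile (25.4%) and 635 of 2054 in the highest (30.9%), and the lowest tertile held only 452 of the 2857 HJ3 calls. The part of transcript length or RNA quality in these differences was not tested.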

How the data were processed

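The deposited values are RPKM per gene, 1 table per library with the same 27864 identifiers, per the file headers. The submitters' processing notes list DESeq 1.10.1, HTSeq 0.5.3, TopHat 1.4.0 and Bowtie 0.12.8. Not given in the sources used here are their roles, the genome build, the annotation, and the handling of strand and shared reads, so genes with near-identical copies or overlapping neighbours are uncertain. Whole reads, depths and gene lengths were worked back from the RPKM steps (Python 3.11.15, numpy 2.4.6, pandas 2.3.3). All values of 17316 genes came out whole within 0.001 reads, which the search in part required. Intervals and floors cover counting error only.

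Genes with RPKM of at least 1 in at least 2 of 12 libraries were kept (15217). Limma 3.58.1 in R 4.3.3 was fitted to log2(RPKM + 1) of all 12 libraries with 6 group means, 6 residual degrees of freedom and a variance trend, and adjusted by Benjamini-Hochberg within each comparison. The fit and the recovery of reads were also run on data simulated from the recovered reads, lengths and depths. Such runs cannot show whether the recovered values are right, and their outcome is not reported here. Named genes were called, did not overlap between the groups compared, had at least 10 RPKM in the higher group, and ranked highest by log2 difference (persisting and opposite genes by the smaller of both differences) or, for abundant genes, by RPKM. Where the lower group had 1 to 10 reads, the ratio is of reads corrected for depth, with an exact 95% binomial interval; otherwise it is of mean RPKM. With 0 reads it is a lower bound against 3 reads in the shallower library. The comparison, lists and rules were chosen with earlier results of these data known. Gene lists by product name could not be used, because 0 identifiers matched the reference table of 26412 genes (assembly Prunus_persica_NCBIv2). The alternatives tried are given in the closing section.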

Additional observations from a re-analysis of the deposited data

Results flagged for a closer look

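Named genes whose difference from ZH2 changed between HJ2 and HJ3, by limma on HJ3 minus HJ2 (adjusted p under 0.05), are listed with that log2 change. It was positive in ppa008439m (6.02), ppa021010m (5.74), ppa017380m (5.58), ppa010355m (5.42), ppa010522m (5.35), ppb012927m (5.20), ppa006857m (2.97), ppa009581m (0.53) and ppa007736m (0.30). It was negative in ppa006496m (-5.22), ppa013865m (-5.16), ppa013981m (-4.64), ppa013058m (-3.98), ppa014177m (-3.23), ppa023846m (-2.65), ppa014179m (-1.14), ppa012651m (-0.74) and ppa009649m (-0.47). The least certain were ppa023846m and ppa007736m, with limma adjusted p-values of 0.0414 and 0.0385. Most of these genes were named for a change with stage, so their number is no finding.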

How the results depend on the processing

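Counts of calls moved with the libraries and the threshold. Leaving out a library of the groups compared gave 1663 to 2237 calls for HJ3 against ZH2, 2357 to 2516 for HJ2 against ZH2, 2886 to 3865 for HJ3 against HJ2, 645 to 893 persisting genes and 174 to 317 called in opposite directions; where 1 library was left, it was assumed to vary like the other groups. At an adjusted p under 0.01 these counts were 1617, 2245, 2777, 580 and 161. With a log2 difference of at least 1 required as well as an adjusted p under 0.05, they were 1652, 2392, 2770, 608 and 129. Thinned to the shallowest depth, 227 genes were called in opposite directions. The persisting share ran from 21.8% (without HJ3 replicate 1) to 32.7% (without HJ2 replicate 1) of the HJ2 calls over all alternatives. For HJ3 against HJ2, median ratio rescaling moved the calls from 1623 higher and 2857 lower to 2067 and 2045. For HJ2 against ZH2, depth without the 10 most abundant genes gave 2029 higher and 1437 lower. With the replicate block the counts were 2748 for HJ3 against ZH2, 3700 for HJ2 against ZH2 and 1066 persisting. Deviations of same-numbered libraries correlated at 0.005 for HJ3 and ZH2, over genes that are not independent. With 2 libraries per group this cannot show whether the replicate numbers mark a shared batch. Of 336 alternative values of the 24 named results, 331 kept direction and call, 5 lost the call and 0 changed direction; the lost call not given above was ppa014177m after thinning (limma adjusted p = 0.0781). The named genes were chosen among the largest or most abundant calls, which favours keeping the call. Each was followed in 1 comparison only. Whether it stayed persisting, lost, gained or opposite was thus not checked. Alternatives for HJ3 against HJ2 and for opposite calls, and the thinning, were chosen once results were known. HJ3 had the lowest depth of the groups compared, and its part in missed calls of low genes was not tested.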
